A study of Mus musculus with 6 samples.

Results

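The genes of glycogen synthesis and breakdown examined here were Ugp2, Gys2, Gbe1, Gyg, Pygl, Ppp1r3b and Ppp1r3c. All array probe sets that the platform annotation pairs with exactly 1 of these 7 genes were taken, which gave 13 of the 45101 probe sets in the table. The livers in the Cre plus group came from C57BL/6 mice with floxed Socs3 (Socs3 fl/fl) that also carried an albumin-promoter Cre transgene, expressed in hepatocytes. Those in the Cre minus group came from Socs3 fl/fl littermates without Cre. All had undergone partial hepatectomy, and whole liver was taken 18 hours later, with 3 arrays in each group (A, B and C) and 2 ug of total RNA per array. Where 3 values of a group are given together they stand for arrays A, B and C in that order. Neither an array from before surgery nor a control with Cre and intact Socs3 was analysed here, so an earlier difference or a transgene effect cannot be told apart from the loss of Socs3. The submitters describe between 3 and 6 animals of either genotype at any given time. The labels, however, do not say that each array came from its own mouse. The p-values therefore measure only how these samples vary among themselves, and whether that spread is between mice or technical cannot be told.

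Hepatocytes store glucose as glycogen. Glucose 1-phosphate is activated to UDP-glucose by the enzyme that Ugp2 encodes, glycogenin (Gyg) primes a new particle, glycogen synthase (Gys2 in liver) lengthens its chains and the branching enzyme (Gbe1) adds branch points. Glycogen phosphorylase (Pygl in liver) releases the glucose again, and a set of glycogen-targeting subunits, Ppp1r3b and Ppp1r3c among them, bring protein phosphatase 1 to the particle, where it activates the synthase and inactivates the phosphorylase. The liver remnant is known to draw on its glycogen in the hours after partial hepatectomy.

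The hepatocyte identity of the tissue was clear in both groups. The summed level of the 10 hepatocyte markers measured above the filter, albumin (Alb) and transthyretin (Ttr) among them, lay between 17.77 and 17.84 in Cre plus and between 17.83 and 17.85 in Cre minus on the log2 scale. Socs3, the targeted gene, had lower values in each Cre plus array than in any Cre minus array on all 3 of its probe sets. The brightest gave 7.44, 6.69 and 7.47 in the Cre plus arrays, against 9.09, 9.30 and 9.24 in the Cre minus arrays. The dimmest did not pass the filter, with 3.02, 3.37 and 3.45 in the Cre plus arrays, against 4.45, 3.81 and 3.84 in the Cre minus arrays. Both others are of the _x_at type, which may also pick up similar transcripts. Where these probe sets lie relative to the deleted part of the gene was not stated by the labels. Cre plus B stood nearer to the Cre minus arrays, at correlations of 0.991 to 0.993 over the 8554 genes tested, than to Cre plus A (0.989) and Cre plus C (0.987).

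Most of the glycogen genes had lower values in Cre plus livers. In value, 6 of the 7 were lower and Gyg was higher, where 53.5% of all genes were lower. The groups did not overlap for Ugp2, Pygl, Ppp1r3b and Ppp1r3c, the last 2 being the phosphatase-targeting subunits. The differences ran from -1.07 for Ppp1r3c to 0.39 for Gyg in log2 fold change (Cre plus minus Cre minus), with a median of -0.46 over the 7 genes, against -0.01 over all genes tested. Each gene was read from its brightest probe set and tested with limma, with Benjamini-Hochberg adjustment over all 8554 genes that had a log2 value over 4 in at least 3 arrays. With that adjustment 0 of the 7 passed an adjusted p under 0.05, a threshold passed by 0.0234% of all genes. Those that passed were Steap4 and Tifa. Socs3 itself, with a log2 fold change of -2.01 on its brightest probe set, did not pass. At an unadjusted p under 0.05 in limma, 4 of the 7 were lower and 0 higher, where 8.21% of all genes were lower and 6.62% higher. Ppp1r3b missed that unadjusted threshold in limma with Cre plus A or any 1 of the Cre minus arrays left out, which left 3 in each case. The same 4 members were those with groups that did not overlap in the lower direction, found in 11.9% of all genes. Without Cre plus C, Gys2 and Gbe1 joined them, which made 6. In whole liver, fewer cells of a type and less RNA per cell cannot be told apart.

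**Figure D1:**
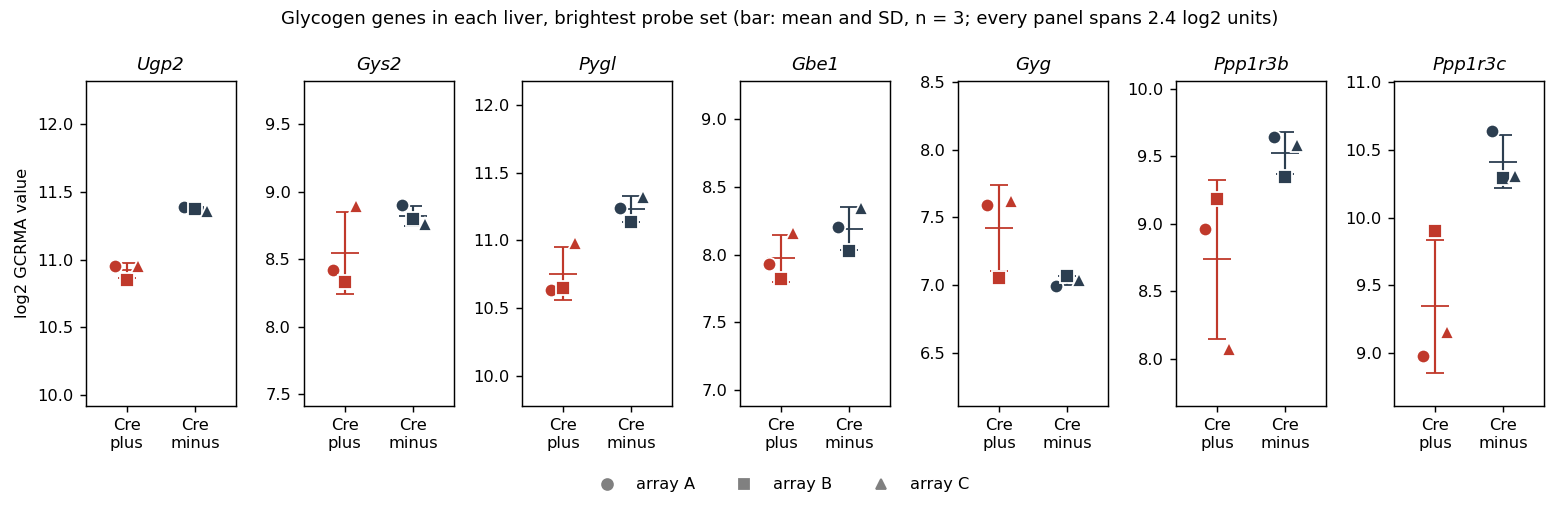
Log2 GCRMA values of the 7 glycogen genes on their brightest probe set, for 3 Cre plus arrays (left in each panel) and 3 Cre minus arrays (right), with the mean and SD. The Cre plus points lie below every Cre minus point for Ugp2, Pygl, Ppp1r3b and Ppp1r3c, and Gyg is high in Cre plus A and C only.

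Ugp2, which encodes UDP-glucose pyrophosphorylase and so supplies the activated sugar for glycogen, glucuronides and glycoproteins, had the smallest spread within groups of the 7 genes on the brightest probe sets. Its brightest probe set gave log2 values of 10.95, 10.85 and 10.95 in the Cre plus arrays, against 11.39, 11.38 and 11.36 in the Cre minus arrays. On this probe set the arrays of each group lay close together and the groups were far apart relative to that spread. The SD of its Cre minus arrays was 0.015, against 0.13 to 0.25 on the other Ugp2 probe sets. The log2 fold change was -0.46 ± 0.06 (SE), which put the Cre plus signal at 72.9% of the Cre minus signal (95% interval 66.3% to 80.2%). Limma's adjusted p was 0.0740, and 22 of the 8554 genes had a smaller p. The exact permutation p was 0.1, two-sided, the smallest that 3 arrays against 3 can give, and the same holds for Pygl, Ppp1r3b and Ppp1r3c.

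All 5 probe sets of Ugp2 gave the same direction, and on each the Cre plus arrays were all lower than the Cre minus arrays, as in 11% of all kept probe sets. The brightest, of the _x_at type, may also pick up similar transcripts, while the others, of the _at and _a_at types, had log2 fold changes of -0.48 ± 0.10, -0.56 ± 0.10, -0.49 ± 0.14 and -0.52 ± 0.13. In the fit over all 15563 kept probe sets, where 0.0129% passed an adjusted p under 0.05, the adjusted p of the 5 lay between 0.10 and 0.272 by limma. Read without probe sets of the _x_at and _s_at types, Ugp2 had an adjusted p = 0.159 in limma. On the mean of its kept probe sets limma gave an adjusted p = 0.133. The probe sets of a gene read the same RNA samples and are not replicates.

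**Figure D2:**
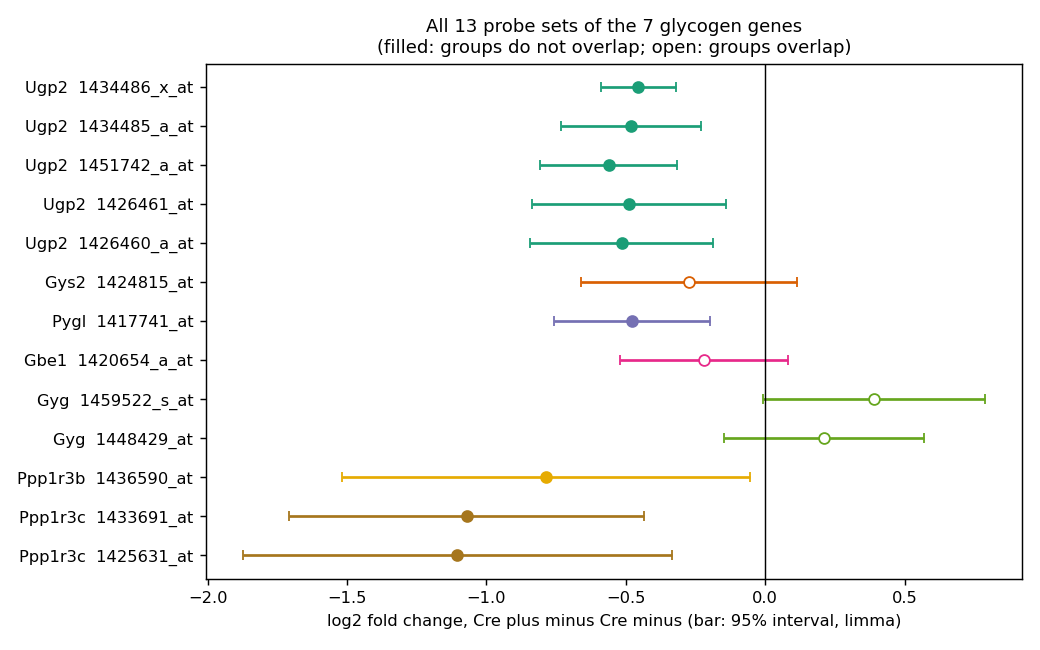
Log2 fold change (Cre plus minus Cre minus) and the 95% interval from limma for each of the 13 probe sets. The 5 Ugp2 probe sets lie between -0.56 and -0.46, and the 2 Ppp1r3c probe sets give -1.07 and -1.10.

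The groups overlapped for the synthase and the branching enzyme. Gys2, the liver glycogen synthase and a step that phosphorylation controls, had log2 values of 8.42, 8.33 and 8.90 in the Cre plus arrays, against 8.90, 8.80 and 8.76 in the Cre minus arrays. Cre plus A and B were below all Cre minus arrays, whereas Cre plus C was within the Cre minus range. The log2 fold change was -0.27 ± 0.16, with a 95% interval from -0.66 to 0.11 and an adjusted p = 0.471 in limma. Without Cre plus C it was -0.45 and without Cre plus B -0.16.

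Gbe1, the branching enzyme, had 7.93, 7.82 and 8.16 in the Cre plus arrays, against 8.20, 8.03 and 8.34 in the Cre minus arrays. The ranges overlapped, with Cre plus C between Cre minus B and Cre minus A. Its log2 fold change was -0.22 ± 0.12 (95% interval -0.52 to 0.08, limma's adjusted p = 0.455), and it was -0.14 without Cre plus B and -0.14 without Cre minus C.

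Gyg, which encodes the self-glucosylating primer glycogenin, went the other way in value. Its brighter probe set gave log2 values of 7.59, 7.05 and 7.62 in the Cre plus arrays, against 6.996, 7.07 and 7.04 in the Cre minus arrays. Cre plus A and C were above all Cre minus arrays, while Cre plus B lay among them. The log2 fold change was 0.39 ± 0.16 (95% interval -0.005 to 0.78), with an adjusted p = 0.340 in limma, and it was 0.57 without Cre plus B, with an adjusted p = 0.0674. The dimmer probe set gave 0.21 ± 0.15, with 5.67, 5.51 and 5.94 in the Cre plus arrays, against 5.59, 5.61 and 5.28 in the Cre minus arrays, and its groups overlapped.

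On the side of breakdown, Pygl, the liver glycogen phosphorylase, had log2 values of 10.63, 10.65 and 10.98 in the Cre plus arrays, against 11.24, 11.13 and 11.32 in the Cre minus arrays. All Cre plus arrays lay below all Cre minus arrays, with Cre plus C the closest. The log2 fold change was -0.48 ± 0.11, which put the Cre plus arrays at 71.8% of the Cre minus signal (95% interval 59.2% to 87.1%). Limma's adjusted p was 0.187. The fold changes of Pygl and of Ugp2 lay within each other's intervals, and that of Gys2 lay within the interval of Pygl.

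The glycogen-targeting subunits of protein phosphatase 1 had log2 fold changes further from 0 than the enzymes did, although for Ppp1r3b this was lost without Cre plus C. Ppp1r3c, which encodes the subunit known as protein targeting to glycogen, had log2 values of 8.98, 9.90 and 9.15 in the Cre plus arrays, against 10.64, 10.29 and 10.31 in the Cre minus arrays. Cre plus B was the highest of its group and the nearest to Cre minus. The log2 fold change was -1.07 ± 0.26, which put the Cre plus signal at 47.6% of the Cre minus signal (95% interval 30.8% to 73.6%), with an adjusted p = 0.187 in limma. Without Cre plus B the log2 fold change was -1.35 with an adjusted p = 0.0674.

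The other Ppp1r3c probe set separated the groups as well. Its log2 values were 7.44, 8.42 and 7.35 in the Cre plus arrays, against 9.12, 8.74 and 8.67 in the Cre minus arrays, and the log2 fold change was -1.10 ± 0.31. On both probe sets Cre plus B lay well above the other Cre plus arrays and still below all Cre minus arrays.

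Ppp1r3b encodes the liver glycogen-targeting subunit, which in liver also binds the active form of the phosphorylase. Its log2 values were 8.96, 9.18 and 8.07 in the Cre plus arrays, against 9.64, 9.35 and 9.58 in the Cre minus arrays. The groups did not overlap, and Cre plus C was far below the other arrays. The log2 fold change was -0.79 ± 0.29, with the Cre plus signal at 58.0% of the Cre minus signal (95% interval 35.2% to 95.5%) and an adjusted p = 0.306 in limma. Its size rested on Cre plus C, since it was -0.45 without that array, when Pygl had -0.59 and Ugp2 -0.47.

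The arrays of the Cre plus group did not rank the genes alike. Relative to the Cre minus mean, Cre plus A was lowest for Pygl and Ppp1r3c, Cre plus B for Ugp2, Gys2, Gbe1 and Gyg, and Cre plus C for Ppp1r3b. Cre plus C was the highest of its group for Ugp2, Gys2, Pygl, Gbe1 and Gyg, whereas Cre plus B was the highest for both phosphatase subunits. The median of the 7 differences lay below 0 in all 3 arrays, with Cre plus A at -0.42, Cre plus B at -0.49 and Cre plus C at -0.25. On the brightest probe sets the SD was larger in Cre plus than in Cre minus for all 7 genes, as it was for 63.1% of all genes tested. On 3 of the 5 Ugp2 probe sets it was larger in Cre minus. Over all genes the Cre plus arrays correlated with each other at 0.987 to 0.990 and the Cre minus arrays at 0.995.

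**Figure D3:**
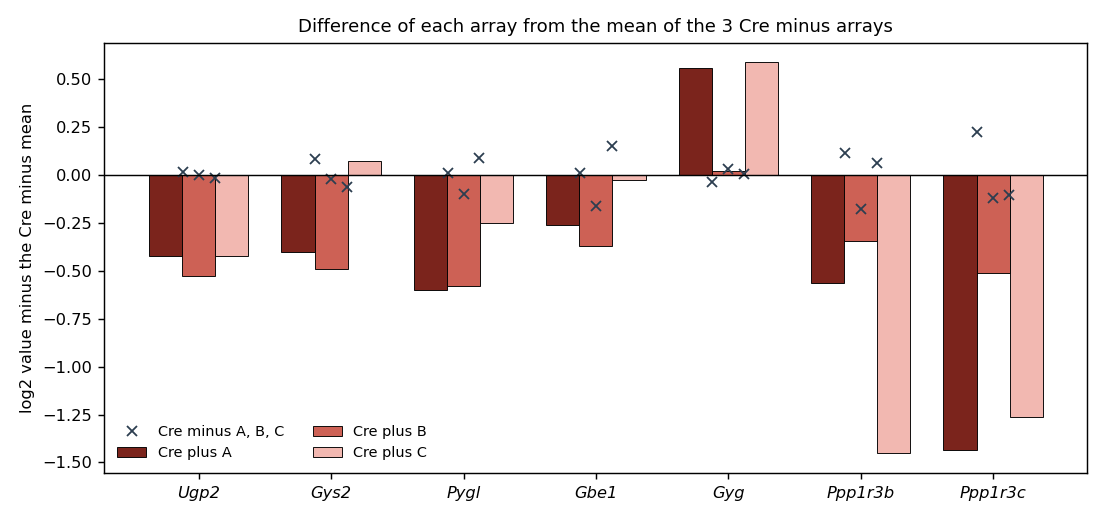
Difference of each array from the mean of the 3 Cre minus arrays, in log2 units, with bars for Cre plus A, B and C and crosses for the Cre minus arrays. Ugp2 is lower by 0.42 to 0.52 in all 3 Cre plus arrays, while Ppp1r3b is lowest in Cre plus C (-1.45) and Ppp1r3c in Cre plus A (-1.44).

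The likeness of 2 genes over the 6 arrays was described by the root mean square difference of their log2 values after each was centred on its own mean, so that a smaller number means a closer profile. Among the 7, the closest pair was Ugp2 and Pygl, at 0.12, followed by Gys2 and Gbe1 at 0.14. The phosphatase subunits Ppp1r3b and Ppp1r3c lay 0.35 apart, and each was at 0.41 or more from every enzyme. Gyg lay 0.34 to 0.47 from the other enzymes. Gyg and Ppp1r3c were furthest apart, at 0.88. These values describe only 6 arrays, and genes with small differences lie close to each other for that reason alone.

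Among the 8547 other genes tested, the nearest to Ugp2 were Pnpla7, at 0.040, Hacd2 at 0.055 and C1qa, a complement gene of macrophages, at 0.064. The median over those genes was 0.25. The nearest gene to Ppp1r3c was Acsm5 at 0.078, followed by Klkb1 and Dpys at 0.15 each. Akr1c14, at 0.11, then Pdk2 and Nrn1, at 0.14 each, were nearest to Ppp1r3b. For Pygl they were Serhl, Gpd2 and Rbp4, for Gys2 Ostf1, Abca6 and Khk, for Gbe1 Gstm1, Desi2 and Arap2, and for Gyg Cttn, 1810055G02Rik and Ddx39a.

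Promoter sequence was at hand for 5 of the 7 genes, in RefSeq windows of 250 bases before and 50 after the gene start (GRCm38.p6), 6 windows in all because Ugp2 has 2 starts. The bases before the start are shown for Ppp1r3c, Pygl and Ugp2, members whose groups did not overlap and which had lower values together. Both strands were searched for 9 motifs, and capitals mark a match in the bases before the start.
Ppp1r3c promoter, GRCm38.p6 chr19:36736605-36736854, minus strand: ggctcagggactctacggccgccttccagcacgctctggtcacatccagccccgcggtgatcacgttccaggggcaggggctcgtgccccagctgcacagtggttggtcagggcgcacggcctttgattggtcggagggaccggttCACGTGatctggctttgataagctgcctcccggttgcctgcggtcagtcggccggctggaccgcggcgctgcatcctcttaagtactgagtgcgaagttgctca
Pygl promoter, GRCm38.p6 chr12:70227684-70227933, minus strand: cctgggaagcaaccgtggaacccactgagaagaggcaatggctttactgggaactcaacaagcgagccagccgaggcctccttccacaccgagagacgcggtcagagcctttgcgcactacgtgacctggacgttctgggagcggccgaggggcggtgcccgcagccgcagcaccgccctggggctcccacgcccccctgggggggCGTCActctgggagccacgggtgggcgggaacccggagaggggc
Ugp2 promoter, GRCm38.p6 chr11:21370630-21370879, minus strand: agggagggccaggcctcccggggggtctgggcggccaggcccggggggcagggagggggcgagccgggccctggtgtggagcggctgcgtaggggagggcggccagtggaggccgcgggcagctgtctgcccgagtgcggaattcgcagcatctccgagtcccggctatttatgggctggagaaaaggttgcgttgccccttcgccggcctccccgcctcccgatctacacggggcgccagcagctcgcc
Ugp2 promoter, GRCm38.p6 chr11:21371268-21371517, minus strand: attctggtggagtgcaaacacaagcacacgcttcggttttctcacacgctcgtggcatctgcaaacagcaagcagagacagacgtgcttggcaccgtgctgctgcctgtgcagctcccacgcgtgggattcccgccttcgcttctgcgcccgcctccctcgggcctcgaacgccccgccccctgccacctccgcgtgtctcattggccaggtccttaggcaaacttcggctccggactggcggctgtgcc
The Ppp1r3c window held the E-box CACGTG at positions -104 to -99 from the start, a motif found in 7.15% of all 32851 promoter windows. Gyg held it too, just after its start at positions 9 to 14, where it overlaps the short form of the cAMP response element, TGACG. Pygl held that short form on the other strand at -44 to -40, and 20.8% of all windows hold it. Neither Ugp2 window held any of the motifs searched. No member window held TTCNNNGAA, the palindrome that STAT factors recognise, which is in 8.30% of all windows. Nor did any hold the FOXO motif TGTTTAC (3.65%), the TATA motif TATAAA (13.6%), the full cAMP response element TGACGTCA (1.79%), the C/EBP motif TTGCGCAA (0.183%), the HNF4 motif CAAAGTCCA (0.475%) or the HNF1 palindrome searched (0.00913%). A match or its lack describes these letters in these windows only.

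The other genes of glycogen metabolism had a median near that of all genes. Of 33 listed, 15 were tested, 0 passed, 0 had an unadjusted p under 0.05 in limma, and their median log2 fold change was -0.03. The smallest p were those of Ppp1cc, a catalytic subunit of protein phosphatase 1 (0.13 ± 0.05), and Phka2, the liver regulatory subunit of phosphorylase kinase (-0.30 ± 0.13). The second kept probe set of Ppp1cc gave -0.02. The isoforms of other tissues, Gys1 and Pygm, and the other targeting subunits Ppp1r3a, Ppp1r3d, Ppp1r3e, Ppp1r3f and Ppp1r3g did not exceed a log2 value of 4 in any array, so no difference could be read for them.

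Of 12 tested genes for signalling from glucagon and adrenaline, which drives glycogen breakdown, 10 were lower in value and 2 higher. Over all genes 53.5% were lower. The log2 fold changes of the 12 ran from -0.46 to 0.04, with a median of -0.13. Of the 12, 1 had an unadjusted p under 0.05 in limma and 0 passed the threshold. The signalling itself was not measured. Gcgr, the glucagon receptor, had log2 values of 9.40, 9.83 and 9.52 in the Cre plus arrays, against 9.98, 9.76 and 10.08 in the Cre minus arrays. Its groups overlapped through Cre plus B, and the log2 fold change was -0.36 ± 0.14 (limma's adjusted p = 0.319). Pde3b, a phosphodiesterase that breaks down cyclic AMP, had -0.33 ± 0.14.

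In the list for glucose entry and exit, all 5 genes tested had lower values, with a median of -0.54. Of the 5, 4 had an unadjusted p under 0.05 in limma and groups that did not overlap. The exception was Gckr, at -0.16 ± 0.10. Slc2a2, the glucose transporter of the hepatocyte membrane, had the largest difference, at -1.45 ± 0.20 with limma's adjusted p = 0.0866. Slc37a4, which carries glucose 6-phosphate into the endoplasmic reticulum, had 9.74, 9.53 and 9.96 in the Cre plus arrays, against 10.23, 10.40 and 10.23 in the Cre minus arrays, a log2 fold change of -0.54 ± 0.12. G6pc, the catalytic subunit of glucose 6-phosphatase and the last step by which glycogen becomes free glucose, had -0.51 ± 0.14. Slc2a1 had -0.54 ± 0.14 on its brightest probe set, but -0.11 and -0.44 on its other 2. With the adjustment over all genes 0 of these 5 passed.

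Of 9 tested genes for other uses of UDP-glucose and for the galactose pathway, which shares UDP-glucose with glycogen synthesis, 4 were lower and 5 higher in value, with a median of 0.01 and 0 past the threshold. Galt, which exchanges UDP-glucose for UDP-galactose, had values of 9.37, 9.44 and 9.30 in the Cre plus arrays, against 9.70, 9.68 and 9.63 in the Cre minus arrays. Its groups did not overlap, and the log2 fold change was -0.30 ± 0.06 (limma's adjusted p = 0.156). Galm, the galactose mutarotase, had -0.36 ± 0.12 on its brighter probe set and -0.22 ± 0.10 on its other.

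**Figure D4:**
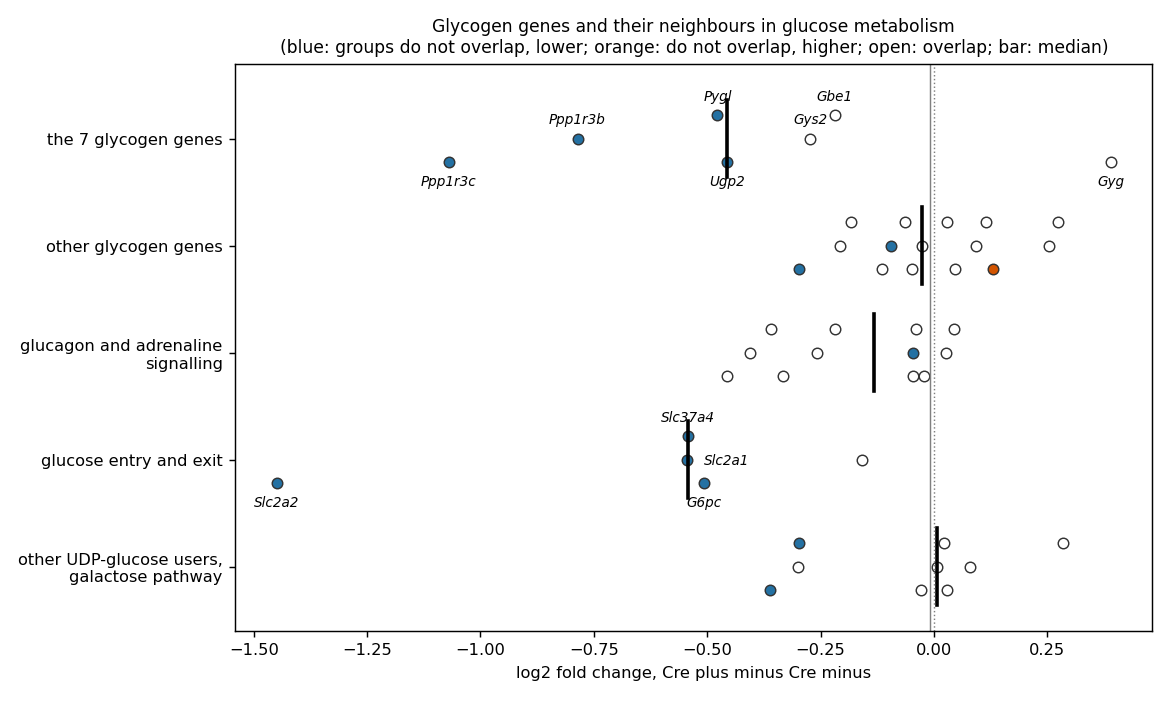
Log2 fold change (Cre plus minus Cre minus) of each tested gene in the 7 glycogen genes and 4 related lists, with the median of each list as a black bar and the median of all genes tested (-0.01) as a grey line. The 7 genes and the 5 of glucose entry and exit have medians of -0.46 and -0.54, and the other lists lie between -0.13 and 0.01.

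Markers of other cells differed in value too. All 11 macrophage and Kupffer cell markers measured above the filter, out of 12 listed, had lower values in Cre plus (median log2 fold change -0.39), and their summed level was 11.29 to 11.56 in Cre plus and 11.71 to 11.75 in Cre minus. Sinusoidal endothelial markers were lower in 8 of 9, with a summed level of 10.94 to 11.25 in Cre plus and 11.26 to 11.47 in Cre minus. The hepatocyte markers had a median of -0.03, with 6 of 10 lower in value. Among them Cps1, a urea cycle enzyme, had -0.50 ± 0.18 (unadjusted p = 0.0330 and adjusted p = 0.293 in limma) with groups that overlapped, and Tat, a tyrosine-degrading enzyme, had 0.39 ± 0.21. Their summed level is carried by the brightest, such as Fgb, whose means of 15.71 in Cre plus and 15.65 in Cre minus lie near the highest value in the table, 15.74. Of the 8 neutrophil markers with a probe set, out of 10 listed, only S100a8 and S100a9 exceeded the filter. They stood high in Cre plus A, at 10.10 and 9.21, against at most 8.54 and 7.90 in Cre minus. In Cre plus B, at 8.19 and 7.64, they lay below every Cre minus array. The part of these markers in the glycogen gene values was not tested. Stellate cell markers were higher in 5 of 9, only Sox9 of the 6 cholangiocyte markers with a probe set exceeded the filter, and no lymphocyte marker did. Of the 8 muscle markers with a probe set, only Acta1 exceeded the filter, at 4.74 on average, with a log2 fold change of 0.09. The creatine kinase gene Ckm lay at 2.66 on average, below the filter.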

How the data were processed

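The values analysed were 1 table of log2 values for 45101 probe sets on 6 Affymetrix whole-genome mouse arrays. The authors made these log2 values with GCRMA, per the submitters' processing notes, in a release not given in the sources used here. It removes a sequence-based background, equalises the arrays' distributions and gives 1 value per probe set. Fold changes near the bottom of the scale can be compressed. The array medians lay between 2.98 and 3.02. Precision is limited by the number of arrays.

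Symbols came from the platform annotation, checked by Entrez ID in RefSeq's GRCm38.p6 genes, which held 34754 of the 34958 single-symbol probe sets, and 0 of those changed. The 64 control probe sets were left out. A probe set was kept if 3 or more of the 6 arrays exceeded a log2 value of 4 (15563 kept). All 13 probe sets of the 7 genes passed, so none of the members was lost. A gene was read from its kept probe set with the highest mean over the 6 arrays, which gave 8554 genes.

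The comparison of Cre plus against Cre minus used limma (3.58.1, R 4.3.3), lmFit and eBayes, two-sided, without a block, with Benjamini-Hochberg adjustment over all genes or, for probe sets, all kept probe sets. The scripts were tested on simulated data. Exact permutation tests were run for the members. Values are means ± SD or log2 fold changes ± SE with n = 3 per group. The labels do not say whether the letters A, B and C pair the arrays. The deviations of same-lettered arrays from their group means correlated at -0.15, -0.10 and 0.02. With 3 arrays per group these correlations depend on each other and cannot decide whether the arrays are paired.

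The members, the lists, the markers and the naming rule were chosen with earlier results of these data known. The rule names all 7 genes, Socs3, in each related list the genes at an unadjusted p under 0.05 (at most 6) filled up to 2, and the 3 genes nearest to each member. The marker genes, Ckm and the isoforms below the filter were added once their values were known. Alternatives tried were other scalings, filters, priors, probe set choices, a replicate block, array weights and each array left out in turn.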

Additional observations from a re-analysis of the deposited data

How the results depend on the processing

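In all 112 values of the 7 genes under 16 alternatives the direction was that of the main analysis, and in 1 of them a member passed, Ugp2 with a stricter filter of log2 values above 6 (6236 genes tested), at limma's adjusted p = 0.0464. With that filter 1 of the 7 genes, 1 gene of the related lists (Slc2a2) and 56 genes in all passed. Over all genes 2 passed in the main analysis, 0 with no filter, 0 with the replicate block and 0 to 13 with an array left out. With the replicate block 0 of the 7 passed and Ugp2 had an adjusted p = 0.252. The median of the 7 lay between -0.48 and -0.42 throughout. The count of the 7 lower without overlap was 4 in all alternatives except without Cre plus C (6) and without Cre minus B (5). The count of the 7 at an unadjusted p under 0.05 in limma ran from 3 to 6. With no filter Ppp1r3b missed it too, and Gyg passed it in the higher direction with the medians of the arrays made equal, the stricter filter, array weights and without Cre plus B. Gyg became higher without overlap, 1 gene, with the medians of the arrays made equal, without Cre plus B and without Cre minus B, so that count ranged over 0 to 1 with an array left out. The cause was not tested. Values near the bottom of the log2 scale carry little signal over background, which limits what can be read for the isoforms not kept.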
